A study of Mus musculus with 12 samples.

Results

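The comparison set the white fat of CLA-fed mice against that of LA-fed mice at the last of 3 sampling times, 24 h, across all genes of an Affymetrix mouse array. Its members were chosen by label only: the 2 arrays of CLA-fed pools and the 2 arrays of LA-fed pools of 24 h, that is 4 of the 12 arrays of the study. The other 8 arrays held 2 CLA and 2 LA pools each of 4 h and 12 h. They entered the fit and served as a comparison.

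The CLA group at 24 h was mouse white adipose tissue of animals fed CLA, and the LA group, which the labels call the control, was the same tissue of animals fed LA; no genotype, transgene or drug is named for either. These letters usually stand for conjugated linoleic acid and linoleic acid, and the fat pad is given only as RP. Strain, sex, age, dose and the moment from which the hours were counted are not given in the sources used here. Total RNA of 5 mice was combined for each array, which makes 20 mice for the 24 h comparison, and the spread between arrays is a spread between pools. Every difference below is between CLA-fed and LA-fed mice, so no value speaks of either diet against an untreated animal.

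White fat stores energy as triglyceride in adipocytes, which make fatty acids from glucose through citrate and acetyl-CoA, esterify them to glycerol and release them again by lipolysis. The tissue also holds blood vessels, fibroblast-like precursors and resident macrophages. Conjugated linoleic acids are isomers of linoleic acid whose double bonds are separated by a single bond, and in mice they are known to reduce fat mass. Heat shock chaperones refold damaged protein, the ATF4 pathway answers amino acid shortage and other stress, and NRF2 induces enzymes that deal with electrophiles. NF-kB drives chemokines that draw leukocytes out of the blood.

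The tissue label fitted the markers on all 4 arrays. Fabp4, the fatty acid carrier of adipocytes, read 65087 and 66407 in the CLA pools and 76084 and 77034 in the LA pools (intensity after each array was scaled to a trimmed mean of 500), and Adipoq, which encodes adiponectin, read 37767 and 35396 in the CLA pools and 56873 and 63174 in the LA pools. Ucp1, the uncoupling protein that defines brown fat, stayed under 100 on each of them. A scaled intensity under 100 is called dim below, and a gene was tested where at least 2 of the 12 arrays reached 100. The share of probe sets that reached 100 was 48.2% and 49.7% in the CLA pools and 46.5% and 49.4% in the LA pools. Signal of Actb at its 3' end over that at its 5' end, a measure of RNA length, was 3.25 and 4.13 against 2.65 and 4.07, so the diets overlapped. The root-mean-square SD between pools over 6339 bright genes was 0.157 on the log2 scale in the CLA group and 0.214 in the LA group. Among the other groups the 4 h CLA pools spread most, at 0.338, and the signal of 18S ribosomal RNA was 27.4 in the first of them against 704 to 1432 on the other 11 arrays.

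Several of the largest increases were in genes that textbooks give as targets of stress-activated factors, and the sequences just before their start sites are shown for that reason. They are RefSeq promoters of build GRCm38.p6, the last 150 bases before the start site, written 5′ to 3′ along the gene, with matches to the motif searched in capitals. Hspa1b (chr17:34959239-34959388, minus strand) and Hspb1 (chr5:135887769-135887918, plus strand) were searched for GAANNTTC, a pair of inverted heat shock units. Cxcl1 (chr5:90891095-90891244), Cxcl2 (chr5:90903749-90903898) and Cxcl3 (chr5:90785951-90786100), all on the plus strand, were searched for the kappaB-like GGNNNTTCC. Atf3 (chr1:191183334-191183483, minus strand) was searched for TGATGNAA, the form of element that ATF4 is known to bind.
Hspa1b: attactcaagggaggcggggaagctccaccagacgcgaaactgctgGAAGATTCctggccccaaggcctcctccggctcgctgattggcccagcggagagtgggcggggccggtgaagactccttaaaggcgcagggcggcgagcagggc
Hspb1: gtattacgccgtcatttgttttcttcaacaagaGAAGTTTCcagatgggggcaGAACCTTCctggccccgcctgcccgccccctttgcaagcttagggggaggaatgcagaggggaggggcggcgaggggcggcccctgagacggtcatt
Cxcl1: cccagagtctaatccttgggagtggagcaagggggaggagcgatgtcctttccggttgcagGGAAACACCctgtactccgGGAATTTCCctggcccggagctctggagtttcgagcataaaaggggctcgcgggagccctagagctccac
Cxcl2: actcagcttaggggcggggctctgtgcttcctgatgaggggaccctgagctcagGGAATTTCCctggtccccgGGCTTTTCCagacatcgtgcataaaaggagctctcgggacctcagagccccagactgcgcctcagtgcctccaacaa
Cxcl3: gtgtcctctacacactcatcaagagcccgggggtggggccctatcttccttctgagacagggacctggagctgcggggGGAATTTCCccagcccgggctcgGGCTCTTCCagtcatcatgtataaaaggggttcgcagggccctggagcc
Atf3: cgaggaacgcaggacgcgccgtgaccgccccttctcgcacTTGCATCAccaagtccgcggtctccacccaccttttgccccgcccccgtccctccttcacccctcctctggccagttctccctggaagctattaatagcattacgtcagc
The 3 chemokine promoters share the match GGAATTTCC, which begins 70, 96 and 72 bases before the start sites of Cxcl1, Cxcl2 and Cxcl3. Both strands were searched, so Atf3 shows its element as TTGCATCA and Cxcl1 shows a further match as GGAAACACC. Over the 300 bases from 250 before to 50 after the start, GAANNTTC stood in 11 of 22 promoters of heat shock list members (50%) and in 7.86% of all 32851 promoters of the table. GGNNNTTCC stood in 5 of 10 CXC chemokine promoters (50%) and 18 of 29 promoters of the NF-kB and toll-like receptor list (62.1%), against 18.5% of all. TGATGNAA stood in 11 of 36 promoters of the ATF4 list (30.6%) against 3.97%, and the NRF2-type TGACNNNGC in 8 of 24 promoters of its list (33.3%) against 12.4%. Matches were not limited to the list a motif is known for: TGACNNNGC stood in 40.7% of immediate early gene promoters and 30.6% of ATF4 list promoters, and GGNNNTTCC in 40.9% of heat shock promoters. Over all genes higher at 24 h, GAANNTTC stood in 5.52% of promoters, against 5.72% over all genes tested. The same shares were 23.7% and 21.3% for GGNNNTTCC, 15.3% and 14.2% for TGACNNNGC, and 2.32% and 2.5% for TGATGNAA. TCACNCCAC, a sterol-type element, was matched in 1 of 17 promoters of the cholesterol list and 0 of 16 of the fatty acid synthesis list, against 1.24% of all. The lists hold genes known for such elements, a gene can have several promoters here, and a match is a description of letters, not a bound site.

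Of the 12593 genes tested, CLA-fed fat of 24 h had 1349 at a higher level (10.7%) and 1380 at a lower level (11.0%) than LA-fed fat, by limma with Benjamini-Hochberg adjusted p under 0.05. Among the higher genes 730 differed at least 2-fold, 192 at least 4-fold and 69 at least 8-fold. Among the lower genes these numbers were 749, 136 and 30. Both pools of 1 diet lay above both of the other for all 2729 called genes, as they did for 64.8% of all genes tested. For 120 of the higher genes both LA pools were dim, and for 146 of the lower genes both CLA pools were dim, so their folds are not exact. The fold counts above use dim values as read. Only a fold given below as "at least", with dim pools set at 100, is a lower limit. A total of 368 genes reached 100 on 2 arrays only through the CLA pools of 24 h, so they could hardly be called lower, and 58 of them were called higher; 253 did so only through the LA pools, and 15 of those were called lower. The count depended on single pools. Without CLA pool 1, CLA pool 2, LA pool 1 or LA pool 2 of 24 h it was 1411, 1107, 1663 or 1502. It was 3330 without either 4 h CLA pool and 1341 when the 4 arrays of 24 h were fitted alone. Without scaling, the median change of all genes moved from 0.02 to 0.23 on the log2 scale, and 1278 genes were higher and 508 lower.

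**Figure D1:**
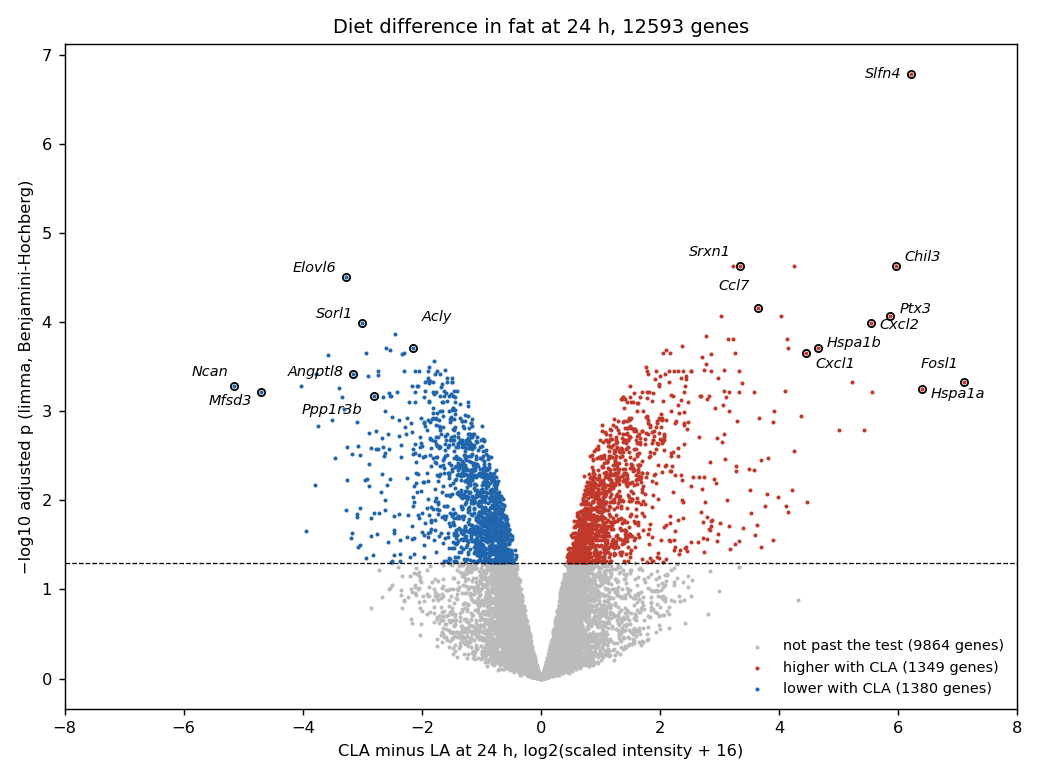
Each point is 1 of 12593 genes; the x axis is the CLA minus LA difference at 24 h in log2(scaled intensity + 16) and the y axis is -log10 of the adjusted p. Red points mark the 1349 higher genes, blue points the 1380 lower ones and grey points the 9864 that did not pass; the dashed line is an adjusted p of 0.05.

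The genes with the largest rise among those bright on all 4 arrays included chaperones, chemokines and antioxidant genes, and a few outside these groups. Malat1, a nuclear noncoding RNA, is read by 7 probe sets that gave changes from 0.14 to 4.25 on the log2 scale, so it is given as uncertain. Other named genes also had probe sets that disagreed: those of Csf1 ran from 0.15 to 3.13 (2 of 4 past the test), of Elovl6 from -3.74 to -0.46 (2 of 3), of Acly from -3.49 to -0.17 (4 of 5), of Hsp90aa1 from -0.75 to 2.07 (4 of 5), of Hspa4 from -0.06 to 1.198 (1 of 2) and of Vcam1 from 0.22 to 1.42 (1 of 2). The values below are those of the brightest probe set. Stx11, a syntaxin of immune cells, read 1500.3 and 1489 in the CLA pools and 114 and 146 in the LA pools, a 10.4-fold rise (adjusted p = 0.000484). Among the genes with the largest fall was Tlcd2, which read 1082 and 742 in the CLA pools and 8995 and 10253 in the LA pools (log2 change -3.398 ± 0.32). Sorl1, a sorting receptor that returns the insulin receptor to the cell surface, read 1162 and 968 in the CLA pools and 9179.9 and 8084 in the LA pools and fell 8.02-fold (adjusted p = 0.000103). Oxtr, the oxytocin receptor, read 453 and 408 in the CLA pools and 3445 and 3396 in the LA pools and fell 7.70-fold. Angptl8, an insulin-induced inhibitor of lipoprotein lipase, read 215 and 211 in the CLA pools and 2174 and 1882 in the LA pools and fell 8.92-fold (adjusted p = 0.000379). In each of these lower genes both CLA pools lay far below both LA pools.

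The fatty acid synthesis enzymes fell: 13 of 19 tested members were lower with CLA and 0 were higher, and the list's median log2 change was -1.44 against 0.02 over all genes. Elovl6, which elongates palmitate to stearate, changed most, with 2883 and 2650.4 in the CLA pools and 26512 and 27448 in the LA pools. That is 9.71-fold lower (log2 change -3.28 ± 0.15, adjusted p = 3.12e-05), and the pools of 1 diet differed by far less than the diets did. Acly, which splits cytosolic citrate to acetyl-CoA, read 12137 and 11316 in the CLA pools and 50222 and 53788 in the LA pools and fell 4.43-fold (adjusted p = 0.000195). Acss2, which makes acetyl-CoA from acetate, read 5448 and 5036 in the CLA pools and 30024 and 27502 in the LA pools and fell 5.47-fold. Slc25a1, the carrier that exports citrate from mitochondria, fell 4.34-fold, from 21128 and 25314 in the LA pools to 5743 and 4926 in the CLA pools. The steps that follow were lower as well. Acaca, which makes malonyl-CoA, fell 2.79-fold (-1.48 ± 0.15 on the log2 scale), and Me1, malic enzyme, which supplies NADPH, fell 3.73-fold (-1.900 ± 0.16). Thrsp, a protein induced with lipogenesis, fell 5.04-fold, and Pnpla3, a lipogenic lipid-droplet protein, fell 5.35-fold from 2906 and 3379 to 559.7 and 587. Of the desaturases, Scd2 fell 2.83-fold, whereas Scd1 read 60771 and 69517 in the CLA pools and 69506 and 81049 in the LA pools (adjusted p = 0.421). That probe set of Scd1 lies near the top of the intensity range, and its other probe set gave -0.79 (adjusted p = 0.015). Fads1 (-0.49) and Fads2 (-0.47), the desaturases of polyunsaturated fatty acids, did not pass the test.

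Of the 8 regulators of this pathway that were tested, 5 were lower and 0 higher, with a median of -1.001. Mlxipl, which encodes the glucose-responsive factor ChREBP, read 311 and 440.4 in the CLA pools and 1491 and 1573 in the LA pools and fell 4.01-fold (log2 change -2.002 ± 0.28, adjusted p = 0.00246). Nr1h3, the oxysterol receptor LXR alpha, read 455 and 306 in the CLA pools and 1003 and 931 in the LA pools and fell 2.52-fold, and its adjusted p was 0.0571 without CLA pool 2. Srebf1, the sterol and insulin responsive regulator of lipogenesis, read 3005 and 3097 in the CLA pools and 7138 and 10195 in the LA pools (adjusted p = 0.0174, and 0.0761, 0.0794 and 0.0955 without CLA pool 1, CLA pool 2 and LA pool 2). Without the pools in the order given above, 2, 1, 3 and 2 of the regulators were lower, and 3 without scaling.

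The genes of cholesterol synthesis and uptake were mostly lower, 12 of 18, with 1 higher and a median of -1.06. Nsdhl, a sterol dehydrogenase, read 1554 and 1749 in the CLA pools and 8375 and 8001 in the LA pools and fell 4.93-fold (adjusted p = 0.000222). Dhcr7, which makes cholesterol in the final step, read 572 and 673 in the CLA pools and 2512 and 2427 in the LA pools and fell 3.91-fold, and Lss, which closes the sterol rings, fell 3.91-fold from 1827 and 1536 to 481 and 362. Fdps and Pmvk, which act earlier in the pathway, fell 3.88-fold and 3.27-fold. Not all steps passed: Sqle read 1643 and 1494 in the CLA pools and 2355 and 2006 in the LA pools and Msmo1 2324 and 2382 in the CLA pools and 3371 and 2536 in the LA pools, and neither passed the test at 24 h. The 1 higher member was Srebf2, the main activator of this pathway, at 876 and 805 in the CLA pools and 270.2 and 332 in the LA pools, but its second probe set gave 0.91 with an adjusted p of 0.054, and the count of higher members was 0 with 1 of the 4 pools left out, whichever it was. Without scaling 7 members were lower.

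Of 14 tested genes of triglyceride assembly and the droplet coat, 10 were lower and 0 higher (median -1.02). Agpat2, which adds the second fatty acid to glycerol, read 10189 and 8234 in the CLA pools and 32482 and 34926 in the LA pools and fell 3.67-fold (adjusted p = 0.000794). Lpin1, which makes diacylglycerol, fell 3.18-fold, and the enzymes of the last step, Dgat1 and Dgat2, fell 3.02-fold and 2.76-fold. Cidea, a droplet protein, read 530.4 and 513 in the CLA pools and 2130 and 2616 in the LA pools and fell 4.42-fold. Plin2 (0.26) and Plin4 (-0.17), droplet coat proteins, did not pass, and the 4 arrays of Plin2 read 32446 and 35542 in the CLA pools and 28212 and 28594 in the LA pools. Of 12 genes of lipolysis and its controls 5 were lower. Mgll, which cleaves the last fatty acid from glycerol, read 7917 and 7029 in the CLA pools and 24215 and 26375 in the LA pools and fell 3.38-fold (adjusted p = 0.00236), while Pnpla2, the first lipase, read 15710.4 and 15102 in the CLA pools and 19035 and 25182 in the LA pools (adjusted p = 0.259). Lipe, hormone-sensitive lipase, read 2926 and 2345 in the CLA pools and 5919 and 8846 in the LA pools with an adjusted p of 0.0247, and of 0.0669, 0.130 and 0.129 without CLA pool 1, CLA pool 2 and LA pool 2. Of 11 genes of fatty acid uptake 2 were lower: Vldlr, a lipoprotein receptor, read 3048 and 2729 in the CLA pools and 12410.2 and 10076 in the LA pools and fell 3.86-fold, and Fabp5 fell 1.72-fold (adjusted p = 0.0508 without CLA pool 1). The 2 lower uptake genes were 18.2% of their list, against 11.0% lower over all genes. Cd36 and Lpl, the fatty acid transporter and the lipase of the vessel wall, gave -0.25 and -0.31 and did not pass. The probe set of Lpl lies near the top of the intensity range, its other probe set gave -0.86 and passed, and their average passed (-0.59, adjusted p = 0.0337). Without the 4 pools in turn, the 10 droplet and assembly genes became 8, 6, 8 and 7 and the 5 lipolysis genes 3, 2, 3 and 2, and without scaling 6 and 2.

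Of 23 adipocyte genes, 13 were lower and 2 higher (median -0.73). Slc2a4, the insulin-responsive glucose transporter GLUT4, read 1153 and 1180.4 in the CLA pools and 4088 and 5359 in the LA pools and fell 3.97-fold (adjusted p = 0.00328). Adig, adipogenin, read 1955 and 2176 in the CLA pools and 6254 and 7941 in the LA pools and fell 3.40-fold, and Klb, a co-receptor for FGF21, fell 2.58-fold. Pparg, the master regulator of adipocytes, fell 1.89-fold to 3539 and 3430.2 from 6198 and 7059.8. The 2 higher members were C/EBP factors, Cebpd, which read 1792 and 2637 in the CLA pools and 299 and 563 in the LA pools and rose 5.13-fold (adjusted p = 0.00517), and Cebpb (0.58 ± 0.15). With 1 of the 4 pools of 24 h left out, whichever it was, the higher count was 1. Members at the top of the intensity range, such as Fabp4 and Car3 (-0.16), did not pass. The summed intensity of the adipocyte markers was 208493 and 209419 in the CLA pools and 313980 and 335512 in the LA pools. In tissue RNA, fewer adipocytes and less of these transcripts in each adipocyte cannot be told apart. The 13 became 6, 6, 10 and 7 without the 4 pools in turn, 16 without either 4 h CLA pool and 5 without scaling.

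Insulin signalling and glucose entry had 9 of 20 members lower and 2 higher. The 2 higher members were Socs3, an inhibitor of cytokine and insulin receptors, which read 2957 and 3634 in the CLA pools and 477 and 421 in the LA pools and rose 7.09-fold (adjusted p = 0.000679), and Slc2a1, the general glucose transporter GLUT1. Slc2a1 read 4009 and 5829 in the CLA pools and 670 and 801 in the LA pools, a 6.48-fold rise, against the 3.97-fold fall of Slc2a4. Pik3r1, the regulatory subunit of PI3-kinase, and Tbc1d4, a switch of GLUT4 traffic, fell 2.43-fold and 2.31-fold. Akt2, the kinase of insulin action, read 536 and 570 in the CLA pools and 1941 and 2266 in the LA pools (adjusted p = 0.00961, but 0.0511, 0.0511 and 0.0531 without CLA pool 1, CLA pool 2 and LA pool 2). Insr, the insulin receptor, gave -0.43 ± 0.16 and did not pass. Of 11 glycogen genes 9 were lower and 0 higher, with a median of -1.33. Ppp1r3b, a subunit that targets a phosphatase to glycogen, read 393 and 369.6 in the CLA pools and 3465 and 2213 in the LA pools and fell 7.01-fold (adjusted p = 0.000679). Gys1, glycogen synthase, read 178 and 119 in the CLA pools and 838 and 1199 in the LA pools and fell 6.30-fold, while Gys2, its liver form, fell 4.55-fold. Pygl, a glycogen phosphorylase, fell 3.35-fold from 17919.6 and 17014 to 5300.1 and 5116. Genes of both glycogen making and breaking were thus among the lower ones. Without the pools in turn 6, 5, 8 and 5 insulin genes and 6, 6, 7 and 6 glycogen genes were lower, and without scaling 4 and 6.

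Mitochondrial genes were counted in 4 lists. Counts of lower members were 10 of 20 for fatty acid oxidation, 12 of 22 for the citric acid cycle and pyruvate entry, 11 of 19 for branched-chain amino acid breakdown and 21 of 38 for oxidative phosphorylation, with medians of -0.51, -0.63, -0.72 and -0.56. Echs1 and Acaa2, enzymes of beta-oxidation, fell 2.93-fold and 2.58-fold. Dlat, a subunit of pyruvate dehydrogenase, read 2478 and 1847 in the CLA pools and 7682 and 7464 in the LA pools and fell 3.52-fold (adjusted p = 0.000470). Pcx, which makes oxaloacetate from pyruvate, fell 2.25-fold, Idh3a 2.85-fold and Ivd, of leucine breakdown, 2.997-fold. Ndufb3, a subunit of complex I, read 5636 and 5323 in the CLA pools and 17360.1 and 17498 in the LA pools and fell 3.18-fold. The 1 higher member of these 4 lists was Pdk4, the kinase that turns pyruvate dehydrogenase off, which read 15928 and 17398 in the CLA pools and 4117 and 3819 in the LA pools and rose 4.19-fold (adjusted p = 0.00210). Pdk1, a kinase of the same family, fell 2.73-fold. Thermogenic genes were lower in 5 of 10, among them Cox8b (3.62-fold), while Ppargc1a gave -0.60 ± 0.19 and did not pass. Of its 4 probe sets 2 passed, the lowest at -2.03, and their average passed too (-1.305, adjusted p = 0.00328). The 5 thermogenic genes became 5, 3, 4 and 3 without the 4 pools in turn and 2 without scaling. The other counts moved with single pools too: without the 4 in turn the 21 oxidative phosphorylation genes became 11, 7, 15 and 9, the 10 oxidation genes 4, 3, 6 and 4, the 12 cycle genes 8, 6, 6 and 9 and the 11 of amino acid breakdown 7, 5, 6 and 5. Without scaling they were 9, 4, 5 and 4.

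Of 20 tested heat shock chaperones 19 were higher with CLA and 0 lower, the highest share in either direction among lists of 10 or more tested genes, with a median of 1.19. The lists were chosen with earlier results of these data known, so this rank is only a description. Hspa1b, an inducible HSP70, read 21314 and 21431 in the CLA pools and 938 and 739.7 in the LA pools and rose 25.2-fold (log2 change 4.65 ± 0.31, adjusted p = 0.000195). Its near-identical neighbour Hspa1a was dim in both LA pools, so how the signal divides between them is uncertain. Hspb1, the small chaperone HSP27, read 40048 and 44461 in the CLA pools and 3733 and 5166 in the LA pools and rose 9.58-fold (adjusted p = 0.000222). Dnajb1, the HSP40 partner of HSP70, read 11005 and 12104 in the CLA pools and 1774 and 1655 in the LA pools and rose 6.68-fold. In all 3 genes the CLA pools stood several-fold above the LA pools and close to each other. Hsph1, Hsp90aa1, Hspe1 and Hspa4, from the HSP110, HSP90, HSP10 and HSP70 families, rose 4.26-fold, 2.81-fold, 2.48-fold and 2.29-fold. Bag3, a cochaperone, rose 2.51-fold, with an adjusted p of 0.0590 without CLA pool 2 and 0.0545 without LA pool 2. The count was 14, 11, 18 and 12 without the 4 pools in turn and 17 without scaling.

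Of 24 chaperones and unfolded protein response genes of the endoplasmic reticulum, 11 were higher and 0 lower (median 0.71). Creld2 and Manf, secreted stress-induced proteins of that compartment, read 2380.4 and 2170.1 in the CLA pools and 502 and 617 in the LA pools and 7846 and 8121 in the CLA pools and 2573 and 1977 in the LA pools. They rose 4.000-fold and 3.52-fold (adjusted p = 0.00122 and 0.000617). Hspa5, the chaperone BiP, rose 2.74-fold from 17846 and 16371 to 43094 and 50798, and Hsp90b1, GRP94, rose 2.53-fold. Ern1, the sensor IRE1 alpha, rose 2.95-fold, while its target Xbp1 gave 0.45 ± 0.16 (adjusted p = 0.0770). Of 37 genes of the ATF4 list, 18 were higher and 4 lower (median 0.68). Ppp1r15a, GADD34, which restores translation, read 1313 and 1249 in the CLA pools and 316 and 228 in the LA pools and rose 4.56-fold (adjusted p = 0.000651). Ddit3, the factor CHOP, read 1871 and 1764 in the CLA pools and 489.8 and 536 in the LA pools and rose 3.47-fold, and Atf4 itself rose 2.40-fold. The amino acid transporter genes Slc3a2 and Slc7a1 rose 3.16-fold and 3.16-fold, while Slc7a11, the cystine carrier, read 164 and 270.4 in the CLA pools and 99.7 and 208 in the LA pools and did not pass. Among the 4 lower members was Vldlr, described with fatty acid uptake. Without the pools in turn the 11 became 7, 7, 8 and 7, and the 18 became 12, 10, 14 and 12.

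The NRF2 list was mixed, with 9 of 23 members higher and 4 lower. Srxn1, sulfiredoxin, which repairs peroxiredoxins, read 9459.5 and 10155 in the CLA pools and 894 and 1005 in the LA pools and rose 10.2-fold, with one of the smallest adjusted p-values of the comparison (2.33e-05). Cbr3, a carbonyl reductase, read 2520 and 2325 in the CLA pools and 259 and 232 in the LA pools and rose 9.33-fold (adjusted p = 2.33e-05). Hmox1, heme oxygenase 1, rose 7.24-fold from 424 and 341 to 2914 and 2800.1. Gclm, Gsr and Ugdh rose 3.83-fold, 3.10-fold and 2.83-fold, acting in glutathione synthesis, glutathione reduction and glucuronide supply. Nqo1, a quinone reductase often used as a marker of NRF2, read 365 and 508 in the CLA pools and 125 and 298 in the LA pools, so the pools of 1 diet differed widely and the test was not passed (adjusted p = 0.206). Gclc, the partner of Gclm, gave 0.38 ± 0.22 and did not pass. The lower members included Me1 and Taldo1 (2.18-fold), enzymes of NADPH supply and of the pentose phosphate pathway. Both metallothioneins, which bind zinc and copper, were higher: Mt2 read 13888 and 15322 in the CLA pools and 835 and 1263 in the LA pools and Mt1 18809 and 18946 in the CLA pools and 3986 and 5770.2 in the LA pools, rises of 14.00-fold and 3.93-fold.

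**Figure D2:**
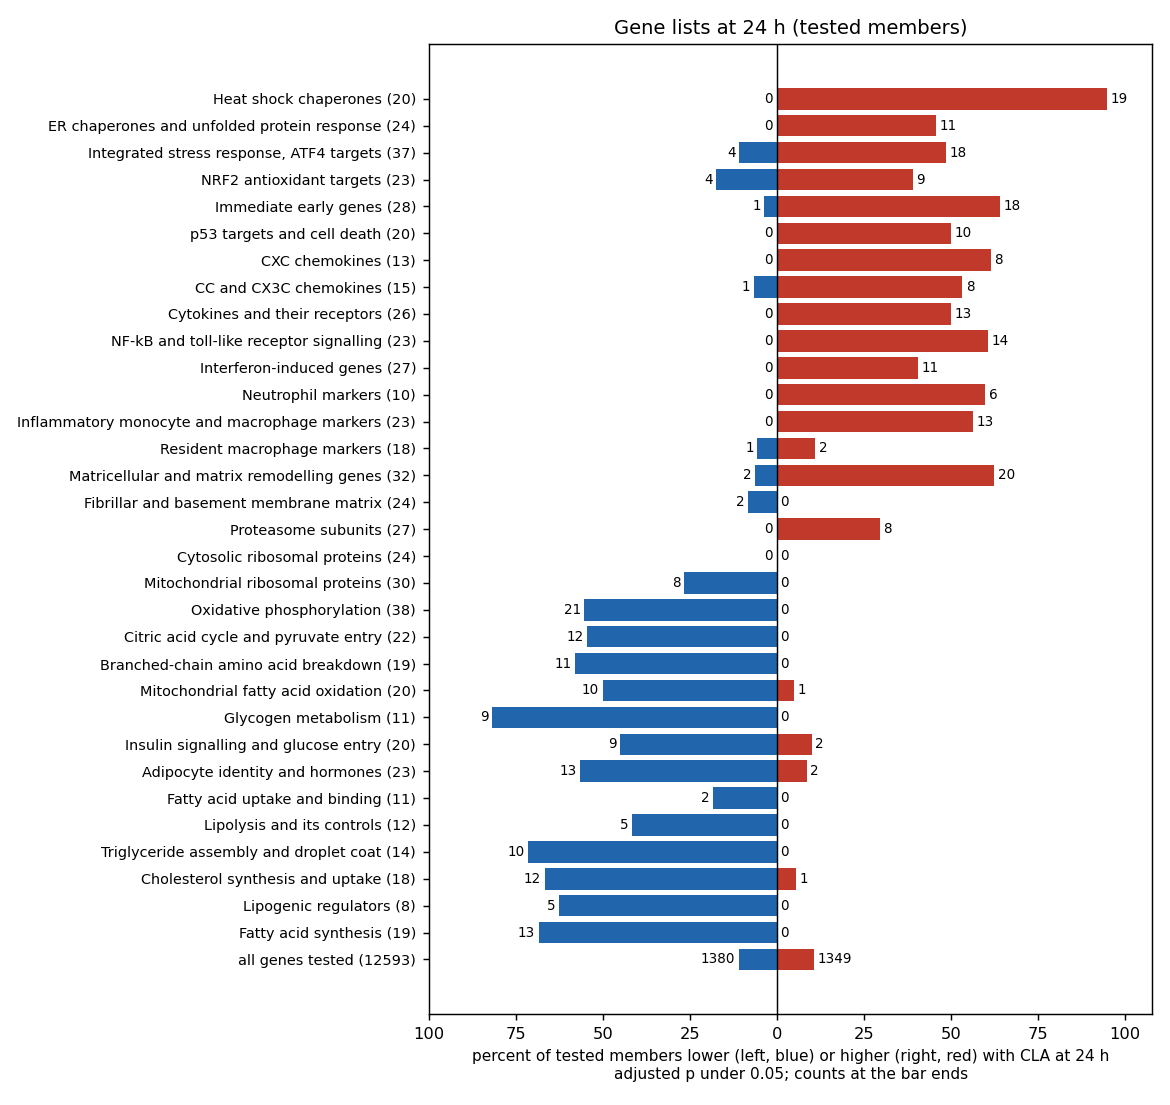
Bars give the percent of tested members of each gene list that were higher (right, red) or lower (left, blue) with CLA at 24 h by limma with adjusted p under 0.05; counts stand at the bar ends and the number tested in brackets. Heat shock chaperones were higher in 19 of 20, fatty acid synthesis lower in 13 of 19, and cytosolic ribosomal proteins passed in neither direction in 24.

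Chemokines were higher, 8 of 13 of the CXC family and 8 of 15 of the CC and CX3C families, with medians of 1.62 and 1.61, or 1.42 and 1.42 with dim pools of the lower diet set at 100. Of the tested members 2 and 2 reached 100 on 2 arrays only through the CLA pools of 24 h, and 2 and 1 of these were among the higher ones. Cxcl1, a neutrophil attractant, read 4856 and 5119.6 in the CLA pools and 284 and 157 in the LA pools and rose 21.98-fold (log2 change 4.46 ± 0.32, adjusted p = 0.000222). Its neighbours Cxcl2 and Cxcl3, whose promoters share the GGAATTTCC printed above, read 2702 and 2572 in the CLA pools and 36.04 and 46.7 in the LA pools and 1339.8 and 1318 in the CLA pools and -30.7 and 34.4 in the LA pools. With the dim LA pools set at 100, Cxcl2 was at least 22.9-fold higher, and Cxcl3 at least 11.6-fold. Cxcl9, an interferon-induced attractant of T cells, rose 3.23-fold and was bright in both diets. Among the CC chemokines, Ccl7, an attractant of monocytes, read 1512 and 1818 in the CLA pools and 112 and 123 in the LA pools and rose 12.6-fold (adjusted p = 6.95e-05). Ccl9 and Ccl6 were bright in LA-fed fat too and rose 5.40-fold and 3.10-fold, to 15761 and 15391 and 14663 and 14533. Ccl5 read 861 and 1946 in the CLA pools and 56.9 and 32.3 in the LA pools, at least 11.3-fold higher, and its adjusted p of 0.0105 became 0.0722 without CLA pool 2 and 0.0580 without LA pool 2. Without the 4 pools in turn 5, 5, 6 and 10 CXC genes and 7, 5, 7 and 7 CC genes were higher.

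Of 26 cytokines and receptors 13 were higher and 0 lower (median 1.28, or 0.77 with dim pools set at 100). Of the 26, 4 reached 100 on 2 arrays only through the CLA pools of 24 h, and 2 of these were higher. Csf1, the growth factor of macrophages, read 5290.1 and 5762 in the CLA pools and 614 and 615 in the LA pools and rose 8.78-fold (log2 change 3.13 ± 0.20, adjusted p = 0.000153), although only 2 of its 4 probe sets passed. Osmr, the oncostatin M receptor, read 5614 and 5216 in the CLA pools and 1219.9 and 1164 in the LA pools and rose 4.49-fold, and Csf2rb, a shared receptor chain of myeloid growth factors, rose 5.26-fold. Il1b, an inflammasome-processed cytokine, read 569.7 and 427 in the CLA pools and 50.7 and 51.3 in the LA pools and was at least 4.39-fold higher. Il33, an alarm cytokine of stromal cells, rose 3.46-fold, and Tnfrsf12a, the TWEAK receptor, 6.33-fold. Among 23 genes of NF-kB and toll-like receptor signalling 14 were higher and 0 lower (median 1.46, or 1.27 with dim pools set at 100). Tlr2 and its co-receptor Cd14 rose 3.54-fold and 3.81-fold, and the NF-kB inhibitors Nfkbie and Nfkbiz 4.03-fold and 3.07-fold. Nfkbia, the main feedback inhibitor, read 19962 and 20524 in the CLA pools and 7376 and 7279.9 in the LA pools with an adjusted p of 0.0332, and of 0.111, 0.130, 0.105 and 0.113 without each of the 4 pools. Of 13 tested genes of leukocyte adhesion 4 were higher (30.8%, against 10.7% of all genes), 0 were lower and 9 did not pass. Without the 4 pools in turn 3, 3, 4 and 4 were higher. Icam1 and Vcam1, adhesion molecules of activated endothelium, rose 6.85-fold and 2.68-fold, to 1375 and 1391 and 634 and 804. Of 15 endothelial markers 1 was higher, Tek, and 2 were lower, Emcn (-0.66) and Nos3 (-1.39), while Cdh5 (0.49) and Pecam1 (0.01) did not pass. Without the 4 pools in turn 0, 0, 0 and 1 of them were higher and 1, 0, 2 and 1 lower. Interferon-induced genes were higher in 11 of 27, among them Ifit1 (4.08-fold), Oasl2 (3.35-fold) and Oas1a (2.72-fold), while Ifit3 read 2158 and 986 in the CLA pools and 1667 and 1406 in the LA pools. Without the pools in turn 8, 7, 10 and 12 cytokine genes, 9, 8, 11 and 11 NF-kB genes and 4, 4, 6 and 4 interferon genes were higher.

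Markers of inflammatory monocytes and macrophages were higher in 13 of 23 and of neutrophils in 6 of 10, with 0 lower in either list. These counts are over members that could be tested: 2 of the 23 and 4 of the 10 reached 100 on 2 arrays only through the CLA pools of 24 h, 1 and 2 of which were higher, and 5 further neutrophil genes were dim and not tested. Leaving those members out, 12 of 21 and 4 of 6 were higher. Fcgr1, the high-affinity IgG receptor, read 1190 and 1079 in the CLA pools and 166 and 75.2 in the LA pools and was at least 7.91-fold higher (adjusted p = 0.00101). Msr1, a scavenger receptor, read 1639 and 1495 in the CLA pools and 216 and 140.4 in the LA pools and rose 8.31-fold, and Ccr2, the receptor of Ccl2 and Ccl7 on monocytes, read 3098 and 3447 in the CLA pools and 1146 and 719 in the LA pools and rose 3.55-fold. Lgals3, galectin-3, which macrophages and other cells make, rose 2.82-fold from 12501 and 11461 to 32208 and 35471. Lectin receptors of myeloid cells also rose: Clec4d read 2044 and 2121 in the CLA pools and 168 and 154 in the LA pools, 11.9-fold, and Clec4e read 831 and 663 in the CLA pools and 41.1 and 17.97 in the LA pools, at least 6.54-fold. S100a9, a calprotectin subunit of neutrophils and monocytes, read 1379 and 825 in the CLA pools and 64.5 and 18.4 in the LA pools, at least 9.34-fold higher. Genes used as markers of macrophages as a whole gave different calls. Cd68, a lysosomal protein, read 1929 and 1637 in the CLA pools and 815 and 848 in the LA pools and rose 2.12-fold (adjusted p = 0.0350, but 0.152, 0.101, 0.118 and 0.109 without each of the 4 pools). Adgre1, the antigen F4/80, did not pass and read 1314 and 1254 in the CLA pools and 1366 and 1048 in the LA pools (log2 change 0.10 ± 0.19), and Csf1r, the receptor of Csf1, read 8857 and 7207 in the CLA pools and 7709 and 7101 in the LA pools (0.11 ± 0.14), which did not pass either, with the diets overlapping in both. Of 18 markers of resident macrophages 2 were higher and 1 lower, close to the share of all genes, with a median of -0.18: Mrc1 gave 0.63 ± 0.16, Cd163 -0.10 ± 0.18 and Folr2 -0.58 ± 0.34. The 2 higher members, Mrc1 and C1qb, did not pass without CLA pool 1, without CLA pool 2 or without LA pool 2. C1qb also did not pass without any 1 array of 4 h or 12 h, or with quantile normalization. When its 3 probe sets were tested singly, 0 passed.

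The summed intensity of the neutrophil markers was 7170 and 5884 in the CLA pools and 1202 and 1080 in the LA pools, and it was 113802 and 110648 against 60102 and 51393 for inflammatory monocytes and macrophages. For resident macrophages it was 69164 and 67110 against 71574 and 68436, with the diets overlapping. The neutrophil and monocyte sums include the 4 of 10 and 2 of 23 members that could be tested only through the CLA pools of 24 h. For those members the filter favoured a higher CLA sum. Defining genes of neutrophil granules, Camp, Ltf and Elane, were dim on at least 11 of the 12 arrays and not tested. Among lists for other cells, mast cell, mesothelial and red cell markers passed in 0 of 5, 0 of 10 and 0 of 4. T and NK cell markers passed in 2 of 10 in each direction (20%, against 10.7% higher and 11.0% lower over all genes). Of the 2 higher T and NK members, 1 could be tested only through the CLA pools of 24 h. The 2 lower ones became 1, 0, 0 and 0 without the 4 pools in turn and 0 without scaling. Whether more such cells or more transcript per cell stood behind the myeloid genes was not tested. Without the 4 pools in turn the monocyte count was 6, 7, 11 and 7 and the neutrophil count 2, 4, 5 and 5.

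**Figure D3:**
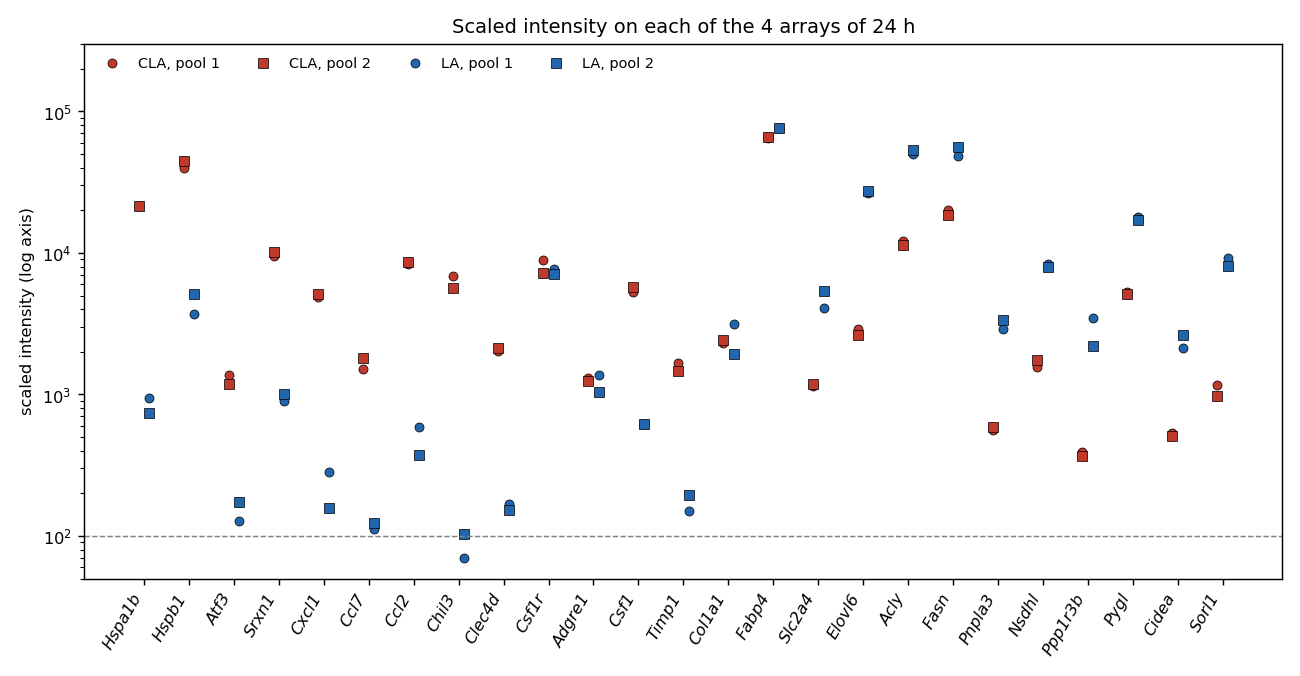
Scaled intensity (log axis) of 25 genes in each of the 4 arrays of 24 h, red for CLA pools and blue for LA pools, circles for pool 1 and squares for pool 2; the dashed line is the limit of 100. The pools separate for Hspa1b, Cxcl1, Ccl7 and Elovl6, and they overlap for Csf1r and Adgre1.

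Kidney and adrenal markers were included because a fat pad can be cut with its neighbours. Of the list's 10 genes, 7 were dim, Cyp11a1 and Umod among them, and not tested, but Star, which carries cholesterol into mitochondria for steroid synthesis, read 2843 and 3647 in the CLA pools and 278 and 391 in the LA pools. It rose 9.35-fold (log2 change 3.23 ± 0.20, adjusted p = 0.000153). Cyp11a1 and Cyp11b1, the defining enzymes of adrenal steroid synthesis, were among the dim genes. Which cells or tissue the Star signal came from was not tested. Liver markers were lower in 3 of 9, and in 0, 2, 0 and 1 without the 4 pools in turn; 3 of the 9 reached 100 on 2 arrays only through the LA pools of 24 h, and 2 of these were lower. Alb, albumin, read 1472 and 2195 in the CLA pools and 6696 and 4507 in the LA pools (adjusted p = 0.00869, but 0.0569 and 0.0516 without CLA pool 1 and LA pool 1). B cell markers were mostly dim, and the probe sets of Ighm went in both directions.

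Immediate early genes were higher in 18 of 28 and lower in 1, with a median of 1.41. Of the 28, 3 could be tested only through the CLA pools of 24 h, and 1 of these was higher. Leaving those members out, 17 of 25 were higher. Fos, a subunit of AP-1, read 2606 and 2272 in the CLA pools and 304 and 448 in the LA pools and rose 6.36-fold (adjusted p = 0.000684), and Egr1, a zinc finger factor, read 6452 and 7370.1 in the CLA pools and 1749 and 1246 in the LA pools and rose 4.63-fold. Maff, a small partner of NRF2-type factors, read 2167 and 2770 in the CLA pools and 146 and 148 in the LA pools and rose 15.1-fold, and Ier3 rose 8.88-fold. Zfp36, tristetraprolin, which degrades cytokine mRNAs, rose 4.19-fold. Jun rose 1.92-fold, and its adjusted p was 0.0657 without CLA pool 2 and 0.0568 without LA pool 1. Of 20 p53 targets and death genes 10 were higher and 0 lower. Gadd45b, a stress adaptor, read 1880.1 and 1542 in the CLA pools and 249 and 197 in the LA pools and rose 7.23-fold, Casp4, the caspase that senses bacterial lipid in the cytosol, rose 5.23-fold, and Cdkn1a and Mdm2, classic p53 targets, rose 2.19-fold and 2.05-fold. Fas gave 0.37 ± 0.25 and Bbc3, the death gene PUMA, -0.60 ± 0.38, and neither passed. Mitotic genes and D cyclins were lower in 7 of 18: Ccnd2 read 4226 and 3807 in the CLA pools and 8494 and 9557 in the LA pools and fell 2.24-fold. Without the pools in turn 13, 12, 14 and 17 early genes were higher and 2, 2, 2 and 7 mitotic genes lower. Without scaling 1 mitotic gene was lower.

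Matrix genes were counted in a pair of lists. Of 32 matricellular and remodelling genes 20 were higher and 2 lower (median 1.51), whereas of 24 fibrillar and basement membrane genes 0 were higher and 2 lower (median -0.15). Timp1, an inhibitor of metalloproteinases, read 1660.1 and 1476 in the CLA pools and 151 and 194 in the LA pools and rose 8.45-fold (adjusted p = 0.00179), while its relative Timp4 read 1748 and 1405 in the CLA pools and 3462 and 4529 in the LA pools and fell 2.51-fold (adjusted p = 0.00252). Adam8, a metalloprotease of leukocytes, read 762 and 774 in the CLA pools and 20.04 and 38.4 in the LA pools and was at least 6.76-fold higher. Adamts4 and Adamts1, which cleave proteoglycans, rose 4.82-fold and 3.07-fold. Thbs2, a thrombospondin, rose 3.93-fold, Lox, which crosslinks collagen, 2.84-fold, and Mmp3, stromelysin, 2.82-fold. Most collagens did not pass: Col1a1 read 2327 and 2437 in the CLA pools and 3130.2 and 1937 in the LA pools, and Col3a1 gave -0.25 ± 0.15 on the log2 scale, although its other probe set passed at -0.72. The 2 lower members were collagens, Col6a2 (-0.71 ± 0.15, adjusted p = 0.0130, and 0.101, 0.0557 and 0.0580 without CLA pool 2, LA pool 1 and LA pool 2) and Col15a1, of basement membranes. Col15a1 fell 4.33-fold from 4052 and 4264 to 1006 and 891 (adjusted p = 0.000617). The 20 became 13, 14, 16 and 15 without the 4 pools in turn.

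Housekeeping lists were counted for comparison. Of 24 cytosolic ribosomal protein genes 0 passed in either direction and their median was -0.02, while 8 of 27 proteasome subunits and 5 of 17 aminoacyl-tRNA synthetases were higher. Those 2 counts fell to 2, 0, 2 and 2 and to 1, 2, 2 and 1 without the pools in turn. Of 16 prostaglandin and phospholipase A2 genes 2 were higher, 4 lower and 10 did not pass. These are 12.5% higher and 25% lower, against 10.7% and 11.0% of all genes. Without scaling 4 were higher and 1 lower. Ptger3, a receptor of prostaglandin E2 that blocks lipolysis in adipocytes, read 2963 and 2900.4 in the CLA pools and 16139 and 12897 in the LA pools and fell 4.90-fold (adjusted p = 0.000350). Ptger4, another receptor of the same ligand, read 1921 and 1993 in the CLA pools and 519 and 534 in the LA pools and rose 3.64-fold (adjusted p = 0.000769). Of 11 tested HoxA and HoxC genes 3 were lower (27.3%, against 11.0% of all genes), 1 higher and 7 did not pass. Without scaling 2 were lower. The higher member, Hoxc9, was dim on all 4 arrays of 24 h and did not pass with quantile normalization. Hoxc8, a position factor of fat depots, fell 2.32-fold from 6229 and 5763 to 2589 and 2565.

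The same diets at 12 h gave fewer calls, 266 genes higher (2.11%) and 303 lower (2.41%). Of the 266, 74.8% were also higher at 24 h, which is 14.8% of the genes higher at 24 h. Of the 303, 57.4% were also lower at 24 h, which is 12.6% of the genes lower at 24 h, and 9 genes were called in opposite directions. These times used different pools but 1 estimate of the spread. The difference of the diet effects itself, 24 h minus 12 h, passed in 288 genes (2.29%), 163 positive (1.29%) and 125 negative (0.993%). Against the diet effect of 4 h it passed in 866 genes (6.88%).

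Fatty acid synthesis had 8 of 19 members with a more negative diet effect at 24 h than at 12 h. Elovl6 read 12374 and 10513 in the CLA pools and 22934 and 24117 in the LA pools at 12 h, a change of -1.04 ± 0.15, and the difference to 24 h was -2.24 ± 0.21 (adjusted p = 0.00497). Acly and Acaca differed by -1.15 ± 0.20 and -1.31 ± 0.21 (adjusted p = 0.0341 and 0.0261, but 0.115 and 0.0984 in limma with the pool number as a block). In fatty acid oxidation and in the citric acid cycle 5 genes each also passed, all negative. Csf1 read 653 and 876 in the CLA pools and 708 and 889 in the LA pools at 12 h (-0.07 ± 0.20) and differed by 3.202 ± 0.28 (adjusted p = 0.00397). Chil3, a lectin of alternatively activated macrophages whose LA pools of 12 h were dim, differed by 5.55 ± 0.33 (adjusted p = 0.000706), Ccl7 by 2.67 ± 0.26 and Icam1 by 3.18 ± 0.24. Positive differences passed in 6 of 23 monocyte and macrophage markers, 6 of 26 cytokine genes, 7 of 32 remodelling genes, 3 of 13 CXC and 4 of 15 CC chemokines. Of the members of these lists, 2, 4, 2, 2 and 2 could be tested only through the CLA pools of 24 h. Among them were Cxcl3 and Il6, which passed. Both were dim in LA-fed fat of 24 h and in both diets at 12 h, so the filter favoured a positive difference. Of 20 heat shock chaperones 0 passed, and Hspa1b gave 4.25 ± 0.31 at 12 h and 4.65 ± 0.31 at 24 h with a difference of 0.40 ± 0.44. Star read 293 and 315 in the CLA pools and 320 and 304 in the LA pools at 12 h and differed by 3.26 ± 0.29 (adjusted p = 0.00397). Genes of glycogen targeting were lower at 12 h too: Ppp1r3b gave -3.61 ± 0.28 (adjusted p = 0.00149) and Ppp1r3c -2.81 ± 0.20 (adjusted p = 0.00137). The count of 288 ran from 27 to 652 when 1 array was left out, and 10 of the 90 rule-named genes that passed kept the call without each of the 12 arrays: Chil3, Adam8, Malat1, Star, Csf1, Icam1, Ccl7, Osmr, Elovl6 and Hif3a. In a fit with the pool number as a block the count of 288 became 8: Chil3, Csf1, Gpr35, H2-Q5, Klra2, S100a9, Slfn4 and Star. The 2 probe sets of Hif3a gave -3.57 and -0.52 at 24 h, and only 1 passed. Its call at 24 h was lost in the authors' deposited table.

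**Figure D4:**
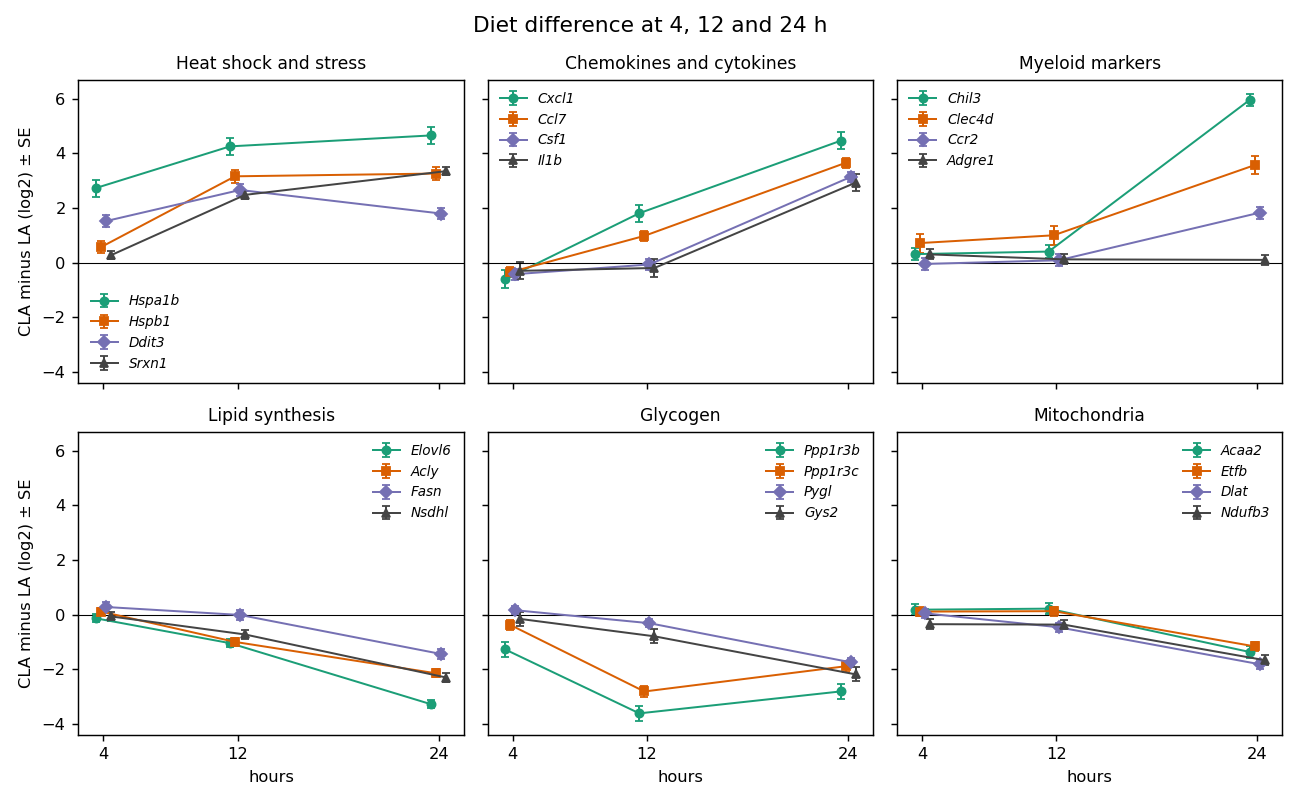
CLA minus LA difference (log2 of scaled intensity + 16, ± SE of the fit, 2 pools per diet and time) at 4, 12 and 24 h for named genes in 6 panels. Hspa1b and Hspb1 are high at 12 and at 24 h, whereas Csf1 and Chil3 are near 0 at 12 h and high at 24 h.

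The authors' deposited table of 24 h gave a second reading of the same arrays. Over 6339 bright genes its log10 ratios correlated with the log2 changes used here with Pearson's r = 0.978, across genes that are not independent replicates. With Benjamini-Hochberg adjustment of its p-values, the authors' deposited table called 1995 genes higher and 1982 lower. These calls in the authors' deposited table included 1157 of the 1349 genes higher here, 85.8% of them and 58.0% of the table's higher genes. Of the 1380 lower genes they included 1186, that is 85.9% of them and 59.8% of the table's lower genes.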

How the data were processed

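The 12 arrays (3 times, 2 diets, 2 pools of 5 mice each) hold 45101 probe sets, 64 of them controls. Per the file headers, the deposited table gives an intensity, which its values show to be linear, with some below 0 and unequal array means, so it was not scaled to a common level; the method that summarised the probes is not given in the sources used here. For 24 h the authors also deposited a table that gives, per probe set, a ratio, its log10 with an error score, and a p-value, and whose file name carries that of the Rosetta Resolver software. Its ratio was taken as CLA over LA because its values run that way.

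Starting from the deposited intensity, each array was scaled to a mean of 500 after trimming 2% at each end, negative values became 0, and log2 of the value plus 16 was used. A fold is thus taken on the value plus 16, which understates changes of dim genes. Probe sets reaching 100 on at least 2 of 12 arrays were kept (25922). Each gene was represented by its brightest probe set among those with 1 symbol in the platform annotation (34958 of the probe sets; 932 had several), giving 12593 genes. Of the gene numbers, 34754 matched the reference table and 0 symbols changed. Where some pools of the lower diet were under 100 they were set at 100 for a fold given as "at least".

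The 6 groups were fitted together in limma 3.58.1 (R 4.3.3; residual degrees of freedom 6, prior 2.17), so that 12 arrays share 1 estimate of the spread. Tests were two-sided with Benjamini-Hochberg adjustment over all genes and a threshold of 0.05. The fit was tested on simulated data. Errors are standard errors of the fit.

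Named genes were, in each direction, the 12 largest changes bright on all 4 arrays, the 8 largest with a dim lower diet, key list members with up to 5 further called members per list, and the 8 largest differences between 24 and 12 h. The comparison and the 55 lists (1091 entries: 937 tested, 66 dim, 88 not analysed here) were chosen with earlier results of these data known. Alternatives covered scaling, offset, filter, probe sets, arrays fitted, prior, a block of pool numbers, each array left out and the authors' deposited table.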

Additional observations from a re-analysis of the deposited data

Results flagged for a closer look

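The 90 genes here were among those named by the rule, and their CLA minus LA difference at 24 h differed from that at 12 h by limma's test of the difference itself (adjusted p under 0.05). In 50 the value was positive and in 40 negative. Values are differences of 2 log2 differences, 24 h minus 12 h, each resting on 2 pools per diet and time. In 21 of the 90 at least 1 of the 4 groups was under 100 on both arrays, so the value is not an exact size: Slfn4, Hoxc9, S100a9, Cxcl3, Chil3, Il6, Sprr1a, H2-Q5, Dusp5, Adam8, Cxcl2, Il1b, Clec4e, Clec4d, Adamts4, Golga7b, D930003E18Rik, Recql4, Slc45a2, Hif3a and Mfsd3. Groups of 2 arrays are too small for a test of single outlying arrays.

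Among chemokines, the differences were Cxcl3 5.58, Cxcl2 3.396, Cxcl1 2.65, Ccl7 2.67, Ccl9 2.16, Ccl2 1.99 and Ccl6 1.27. Among cytokines, receptors and signalling genes they were Il6 4.74, Csf1 3.202, Il1b 3.12, Socs3 2.55, Csf2rb 2.34, Osmr 2.32, Pim1 2.15, Il33 1.64 and Ptger4 1.75. Pentraxin and the adhesion genes gave Ptx3 2.43, Icam1 3.18 and Cd44 2.81. Markers and receptors of myeloid cells gave Slfn4 6.21, S100a9 5.85, Chil3 5.55, Msr1 3.49, Fcgr1 3.004, Clec4e 2.83, Clec4d 2.57, C3ar1 1.82, Ccr2 1.74 and Lgals3 1.502. The changes at 12 h that enter the values of S100a9, Il6 and H2-Q5 were -1.49, -1.47 and -1.33. Interferon and MHC genes gave H2-Q5 4.37, Ifit1 3.15 and Oasl2 1.86.

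Early and growth genes gave Dusp5 4.03, Gadd45b 2.65, Fos 2.31, Egr1 1.84 and Ccn1 1.697, and matrix genes Adam8 3.66, Adamts4 2.45, Plaur 1.62, Thbs2 1.51 and Lox 1.18. Stress genes gave Manf 2.02, Creld2 2.02, Ugdh 1.64 and Cbr3 1.099. The remaining positive values were Hoxc9 6.07, Sprr1a 4.65, Malat1 3.39 and Star 3.26. Hoxc9 was under 100 on all 4 arrays of 24 h, so its value comes from 12 h, and Malat1's probe sets disagreed.

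Negative values in lipid synthesis and storage were Elovl6 -2.24, Thrsp -2.05, Acss2 -1.73, Me1 -1.704, Slc25a1 -1.66, Lss -1.64, Nsdhl -1.58, Pmvk -1.45, Fasn -1.43, Acaca -1.31, Acly -1.15, Mgll -1.74, Vldlr -1.72 and Pygl -1.43. In mitochondria they were Echs1 -1.94, Slc25a10 -1.86, Acaa2 -1.59, Mmut -1.52, Mrps35 -1.46, Mrpl12 -1.44, Dlat -1.35, Idh3a -1.31, Ndufb3 -1.303, Etfb -1.29, Pcx -1.27, Acad8 -1.26, Atp5o -1.15 and Pdha1 -1.11. The others were Mfsd3 -4.03, Hif3a -3.74, Slc45a2 -3.59, Recql4 -3.57, Ntpcr -3.22, D930003E18Rik -3.22, Golga7b -3.04, Aldh1l1 -2.46, Col15a1 -1.53, Sorl1 -1.49, Taldo1 -1.19 and Hsd11b1 -0.9988. The value of Ntpcr comes from 12 h, where its change was 2.57, and its change at 24 h was -0.65 and did not pass.

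Of the 90, 10 kept their call without each of the 12 arrays. Slfn4, Cxcl3, Il6, H2-Q5, Dusp5 and Clec4e reached 100 on 2 arrays only through the CLA pools of 24 h, so they could not be tested without either of those pools. With the pool number as a block, 6 passed: Slfn4, S100a9, Chil3, H2-Q5, Star and Csf1.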

How the results depend on the processing

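The count of 2729 genes at 24 h stayed within 1.5 times under quantile normalization (2825), a common median (2374), another offset (2600 with 4 and 2927 with 64), no filter (2385), a stricter one (3055), averaged probe sets per gene (2306), a trended robust prior (3299) and the 8 arrays of 12 and 24 h (3025). Without scaling it was 1786, and with only the 4 arrays of 24 h it was 1341. Leaving out 1 array gave 1107 to 3330. Leaving out genes dim on all 4 arrays of 24 h, an alternative chosen after seeing the data, gave 2714.

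Of 404 list calls, 256 remained in number with only the 4 arrays of 24 h, and 217 to 444 without 1 array. The 288 genes whose effect differed between 24 h and 12 h became 110 without scaling, 483 with 64 added, 771 with the stricter filter, 189 with averaged probe sets, 169 with probe sets tested singly and 1021 with the trended robust prior. They ran from 27 to 652 without 1 array. The 866 against 4 h became 373 without scaling, 1413 with the stricter filter and 1691 with the trended robust prior, and 189 to 1820 without 1 array. The cause was not tested.

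Ighm changed sign with averaged probe sets (0.018, adjusted p = 0.97), and Hoxc9 in the authors' deposited table (-1.16, adjusted p = 0.084). Of 322 named genes called at 24 h, 204 kept the call without each array in turn and 57 lost it without scaling.

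Same-numbered CLA and LA pools had deviations correlated at -0.09 at 24 h, but at 0.39 at 12 h and 0.32 at 4 h. The labels name no pairing, and whether pools of the same number belong together was not settled. With the replicate block the 24 h count was 2199, the difference to 12 h 8 and the difference to 4 h 171, and the list calls were 351. With 2 pools per group, the number of arrays limits the precision of every value, and dim genes have only a limit.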
